A study of Drosophila melanogaster with 18 samples.

Results

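Wing discs that expressed wild type Tip60 were compared after 48 h and after 78 h of transgene expression, with 3 libraries at each duration. These 6 libraries, chosen by their labels, are 6 of the 18 in the series. The discs came from Drosophila melanogaster larvae that wandered at the end of the third instar. Vials were uncrowded, and larvae were heat-shocked at 37 °C for 30 min, which produced overlapping clones of cells. They were held at 18 °C, where the transgene was silent, and were moved to 28 °C for 48 h or 78 h before dissection. Discs of both durations were therefore taken from wandering larvae. A closer match of stage was not tested, and time at 28 °C differed with the duration. The other groups were a control and a dominant negative Tip60 (Tip60dn), each with 3 libraries at 48 h and 3 at 78 h, and all went through the same heat shock and temperature steps. The sources used here do not give the driver of the transgene, the genotype of the control or the share of disc cells in clones. Homogenates of 20 discs were pooled to 40 discs a library, and libraries were made from polyadenylated RNA with a directional protocol.

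Tip60 is a histone acetyltransferase and the catalytic subunit of the NuA4 complex, whose fly form also exchanges histone variants in chromatin and takes part in transcription and DNA repair. The wing disc is an epithelial sac that grows through the larval stages and forms the adult wing and much of the thorax. Its cells still divide in the late larva, while pulses of the steroid hormone ecdysone set the time of the moults and of metamorphosis. The comparison asks which transcripts differ when extra Tip60 is expressed for longer. Counts for each duration came in a separate table, so duration and table cannot be told apart, and the same difference in the control discs is given as background.

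The 6 libraries held 70895152 to 102795844 counts, and all 18 held 65277725 to 105716567. Both tables list the same 17559 genes, of which 11173 passed the filter on low counts and were tested. Levels are counts per 1000000 library counts (CPM), and differences are log2 values, 78 h minus 48 h, with 95% intervals. Nothing in the labels says whether the pools came from separate cultures, so p-values measure the spread between these pools. The discs carried transcripts of the wing and body wall selectors: in the 6 libraries vg ranged from 194.7 to 244.1 CPM, nub from 322.9 to 374.6 CPM and sd from 612.2 to 625.7 CPM. The notum genes tsh and pnr ranged from 374.0 to 393.1 CPM and from 55.4 to 65.5 CPM. None of the 7 disc markers tested separated the durations.

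Tip60 itself stood at similar levels after both durations. At 48 h the 3 libraries held 1501, 1511 and 1868 CPM of Tip60 (FBgn0026080, BDGP6 chromosome X, 4114800 to 4117487), and at 78 h 986, 1759 and 1985 CPM. The durations overlapped, with the lowest and the highest values both at 78 h. The difference was -0.04 log2 (SE 0.21, 95% interval -0.49 to 0.40), an unadjusted p of 0.831 in edgeR's quasi-likelihood test with an adjusted p of 1.0. Control discs held 30.8 to 44.9 CPM over both durations. The control difference was 0.21. Without the 78 h replicate 1 library the wild type difference was 0.20, and without the 48 h replicate 3 library 0.07, so its sign rests on single libraries. Reads of the endogenous and the transgenic copy cannot be told apart. In the annotation 21.0% of the exon length is shared with tyf, which runs on the opposite strand. The eye pigment transporter gene w, a common transgene marker, stood at 131.5 ± 9.66 CPM at 48 h and 124.5 ± 5.96 CPM at 78 h (SD, n = 3), a difference of -0.08 log2 (interval -0.23 to 0.08). In the control the same difference for w was -0.18.

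No gene passed the test between 78 h and 48 h of wild type Tip60 expression. Of 11173 genes tested with edgeR, 0 were called at an adjusted p under 0.05 (0%), and the smallest adjusted p was 1.0. At an unadjusted p under 0.05 there were 455 genes (4.07%), 208 higher and 247 lower at 78 h. The median difference over all genes was 0.00 and the median size of a difference 0.07 log2, beside a median SE of 0.09. DESeq2 called 6 genes (0.0383% of those it tested), and limma-voom called 0.

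The intervals give the range of differences that the data do not exclude for each gene. They are not adjusted for the number of genes, so they are not a limit of what the test would call. For 7173 genes (64.2%) the 95% interval lay within 1.5-fold either way, and for 8181 (73.2%) within 2-fold. Precision followed the level of the gene. Of 2192 genes at 100 CPM or more, 98.4% had an interval inside 1.5-fold, as did 97.5% of 4053 genes at 10 to 100 CPM and 61.3% of 1637 genes at 1 to 10 CPM. Below 1 CPM it was 1.79% of 3291 genes, so for most genes at that level a difference of 1.5-fold was not excluded.

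Control discs also gave no called gene. Their own difference between durations gave 0 calls in edgeR (0%), with a smallest adjusted p of 0.156, 568 genes at an unadjusted p under 0.05 (5.08%) and 22 genes in DESeq2 (0.166%). The median size of a difference was 0.07 log2 there too. The difference between the wild type and the control shift was tested directly, and 0 of 11173 genes were called in edgeR (0%), with 461 at an unadjusted p under 0.05 (4.13%), a smallest adjusted p of 0.999 and 3 genes in DESeq2 (0.0192%). The 3 libraries of the durations did not overlap for 719 genes (6.44%) in wild type discs and for 1361 genes (12.2%) in control discs.

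**Figure D1:**
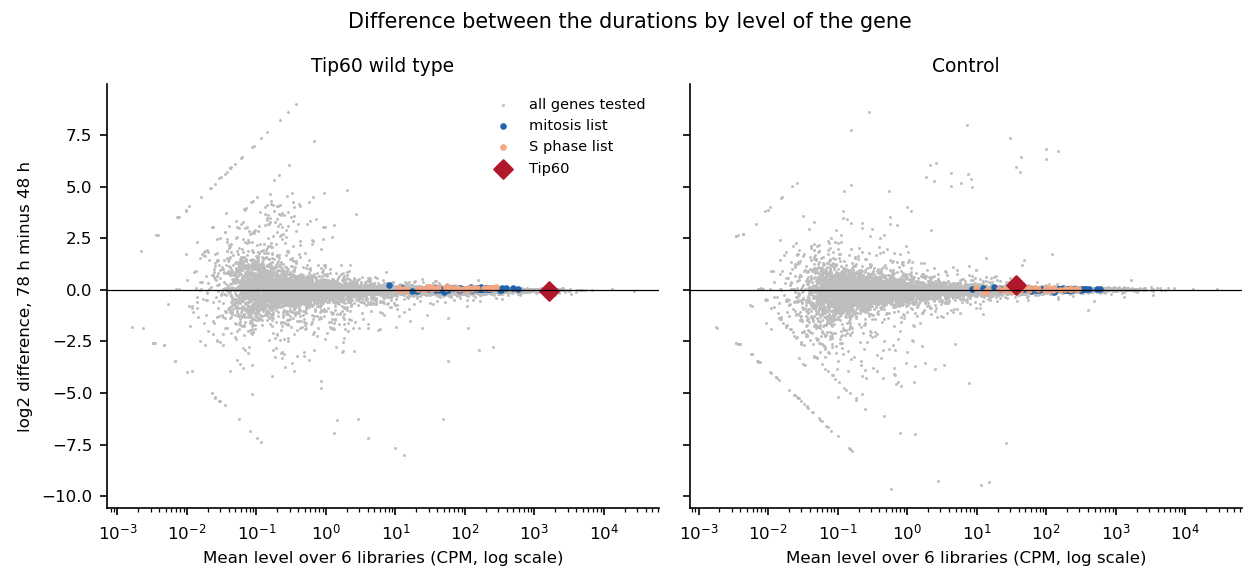
Log2 difference, 78 h minus 48 h, of each of 11173 genes against its mean level over 6 libraries (CPM, log scale), for wild type Tip60 discs and control discs; grey points are all genes, coloured points the S phase and mitosis lists and the diamond Tip60. Points narrow toward 0 as the level rises, and the S phase and mitosis genes lie close to 0 in both panels.

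In dominant negative discs the same test called 15 genes (0.134%), 6 higher and 9 lower at 78 h, with 920 genes at an unadjusted p under 0.05 (8.23%). The 15 genes were chosen by the Tip60dn values, and their values in wild type discs are a description. Ldh, lactate dehydrogenase, differed by -2.29 log2 in Tip60dn discs, -0.49 in wild type discs and -0.69 in control discs. Pfk, phosphofructokinase, differed by -0.58, -0.07 and 0.00, and the malic enzyme gene Men by -0.67, -0.13 and 0.03. The maltase gene Mal-B2 differed by 1.30, 0.62 and 0.17. In wild type discs 10 of the 15 had the same direction as in Tip60dn discs, and in control discs 5. The share of all genes with the same direction was not counted, so no likeness between groups is read from these counts. In wild type discs 4 had an unadjusted p under 0.05, against 4.07% of all genes tested. The difference between the wild type and the Tip60dn shift was called for 0 genes in edgeR (0%), with 623 at an unadjusted p under 0.05 (5.58%) and 4 in DESeq2. Neither of these fits held a replicate block. In Tip60dn discs the number called was 3, 0 and 35 without 48 h replicates 1, 2 and 3, and 1 and 7 without 78 h replicates 2 and 3.

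Genes that drive the cell cycle stood at nearly the same level after both durations. E2f1 encodes the transcription factor of S phase genes, and it stood at 350.9, 328.1 and 322.2 CPM at 48 h and 325.3, 343.0 and 342.0 CPM at 78 h. The durations overlapped, and the difference of 0.01 log2 had an interval of -0.08 to 0.11. CycE, whose product starts S phase with Cdk2, stood at 106.7, 97.7 and 99.2 CPM and then at 103.0, 103.9 and 101.3 CPM. Its difference was 0.02 (interval -0.09 to 0.13), again with overlapping libraries. The Cdc25 phosphatase gene stg, which triggers mitosis, varied more between libraries, with 157.1, 187.7 and 148.3 CPM at 48 h and 155.6, 186.6 and 170.6 CPM at 78 h. Replicate 2 was the highest library at each duration, and the difference was 0.06 (interval -0.13 to 0.24). The Cdk inhibitor dap differed by 0.05 (interval -0.08 to 0.17) and the retinoblastoma gene Rbf by 0.02 (interval -0.08 to 0.12). The pro-apoptotic gene rpr stood at 18.8, 17.6 and 15.4 CPM at 48 h and 21.5, 19.1 and 18.1 CPM at 78 h. Its libraries overlapped, and the difference of 0.18 (interval -0.01 to 0.37) had an unadjusted p of 0.0581 and an adjusted p of 1.0 in edgeR. In control discs the differences were -0.04 for E2f1, 0.01 for CycE, -0.05 for stg, 0.00 for dap, 0.07 for Rbf and 0.09 for rpr. None of these 6 genes differed between the wild type and the control shift at an unadjusted p under 0.05.

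**Figure D2:**
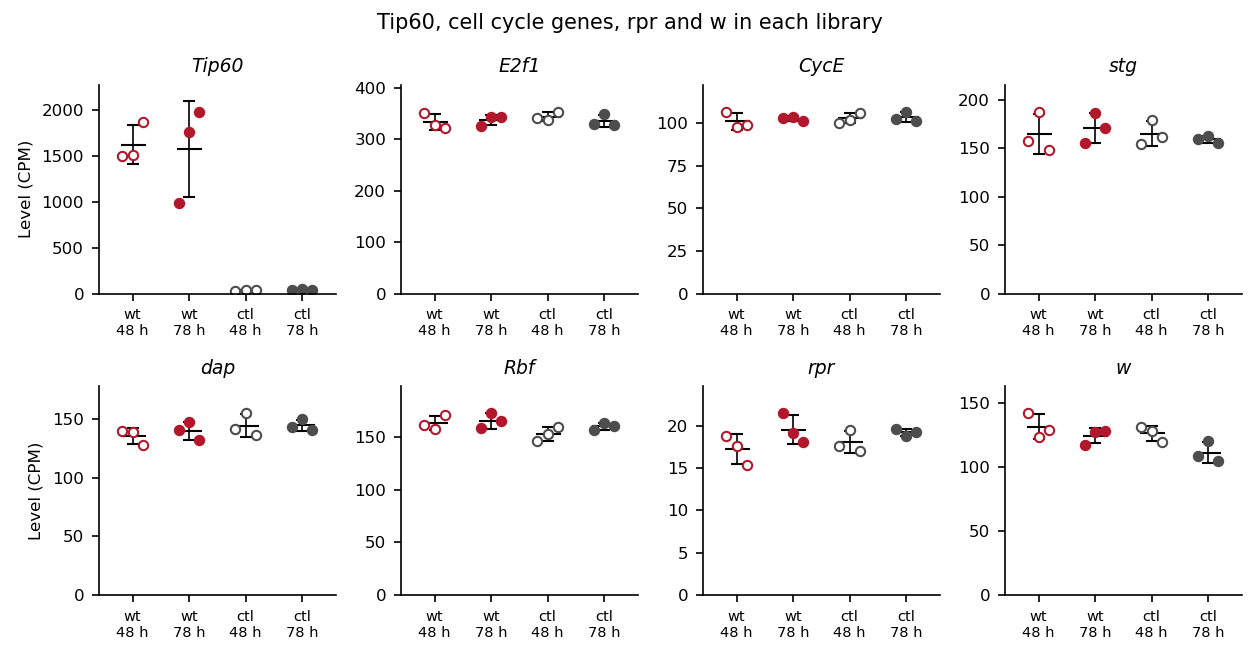
Level in CPM of Tip60, 5 cell cycle genes, rpr and w in each library of wild type Tip60 (wt) and control (ctl) discs at 48 h (open) and 78 h (filled); the bar is the mean and the whisker the SD over 3 libraries. Tip60 is at 986 to 1985 CPM in wild type discs and 30.8 to 44.9 CPM in control discs, and for each gene the wild type libraries of the durations overlap.

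Replication and mitosis genes shared small positive differences, none of which passed the test. Of 36 S phase genes tested, 0 were called, 34 had a positive difference and the median was 0.08 log2, beside 0.00 over all genes tested and 0.04 for the same genes in control discs. Over all genes tested, 5653 of 11173 differences were positive. Whether members vary independently was not tested, for this list or for those below. All 36 intervals lay inside 1.5-fold. PCNA, the sliding clamp of DNA polymerase, stood at 243.3, 263.3 and 232.9 CPM at 48 h and 281.5, 255.3 and 243.3 CPM at 78 h, a difference of 0.08. The ribonucleotide reductase gene RnrL stood at 262.8, 285.5 and 257.0 CPM and then 316.2, 286.1 and 276.7 CPM, a difference of 0.13 with an unadjusted p of 0.0421. For both genes replicate 1 was the highest library at 78 h, and the durations overlapped. The summed level of the S phase list was 2968, 3180 and 2892 CPM at 48 h and 3419, 3148 and 2982 CPM at 78 h, and without the 78 h replicate 1 library its median difference was 0.03, with 29 of 36 positive.

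Mitosis genes showed the same high library at 78 h. Their summed level was 8526, 8949 and 8446 CPM at 48 h and 9374, 8984 and 8650 CPM at 78 h. Of 57 tested, 0 were called, 52 had a positive difference, the median was 0.06 (0.04 in control discs) and all 57 intervals lay inside 1.5-fold. The cyclin gene CycB stood at 376.8, 370.4 and 387.1 CPM and then 429.6, 387.1 and 386.7 CPM, a difference of 0.09. The securin gene pim, an inhibitor of chromatid separation, stood at 52.2, 54.4 and 50.6 CPM at 48 h and 49.3, 51.0 and 47.5 CPM at 78 h. Its libraries overlapped, and its difference of -0.09 was opposite in sign to most of the list. The centromeric histone gene cid, at 6.82 to 9.78 CPM, differed by 0.23 with an unadjusted p of 0.0232. Without the 78 h replicate 1 library the median of the list was 0.02, with 45 of 57 positive. Among 29 cell cycle regulators 0 were called and the median was 0.02.

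Members of the NuA4 complex and of DNA repair did not pass the test either. All 17 NuA4 genes had intervals inside 1.5-fold, with a median of 0.01 (0.03 in control discs). The scaffold gene Nipped-A stood at 675.2, 634.6 and 651.3 CPM at 48 h and 617.1, 675.3 and 683.5 CPM at 78 h, a difference of 0.01. The ATPase gene dom, whose product exchanges histone variants, differed by -0.01, E(Pc) by -0.04, and the histone variant gene His2Av by 0.06. Of 37 DNA repair genes 0 were called, 32 had a positive difference, the median was 0.05 (0.01 in control discs), and all 37 intervals lay inside 1.5-fold. Without the 78 h replicate 1 library the DNA repair median was 0.02, with 22 of 37 positive. Of 22 other acetyltransferases and deacetylases, and of 36 Hox, Polycomb and Trithorax genes, 0 were called, with a median of 0.01 in each list.

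No stress or cell death gene passed the test, and several varied widely between libraries of 1 duration. The chaperone gene Hsp70Bb, induced by heat, stood at 592.7, 663.0 and 752.2 CPM at 48 h and 278.4, 780.0 and 639.5 CPM at 78 h. The lowest and the highest value both fell at 78 h, and the difference was -0.24 with an unadjusted p of 0.394. Hsp68 ranged from 11.3 to 235.1 CPM within the 48 h libraries alone. Near-identical Hsp70 copies share reads, so the split between them is uncertain. Of 27 heat shock chaperones 0 were called, the median was -0.08 (-0.01 in control discs), and 12 intervals lay inside 1.5-fold. That median was 0.01, with 14 of 27 positive, without the 48 h replicate 2 library, and 0.00 in limma-voom. Of 20 apoptosis genes 0 were called with a median of -0.01. The death gene hid differed by -0.18, and Diap1, the caspase inhibitor, stood at 1355, 1348 and 1603 CPM and then 1054, 1584 and 1738 CPM, a difference of 0.02. Of 27 JNK and stress genes 0 were called. Their target puc differed by -0.10, the matrix protease gene Mmp1 by -0.14, and the growth-delay hormone gene Ilp8 stood at 0.217 to 0.298 CPM in all 6 libraries. Lists of detoxification, with 32 genes, and innate immunity, with 28, also held 0 called genes.

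Hormone response genes had a negative median difference, and many had wide intervals. Of 37 ecdysone and timing genes 0 were called, the median was -0.12 (-0.07 in control discs), and 15 intervals lay inside 1.5-fold. The early response gene Eip74EF stood at 150.2, 143.1 and 144.5 CPM at 48 h and 119.2, 132.1 and 140.7 CPM at 78 h. Its libraries did not overlap, and the difference was -0.16 with an unadjusted p of 0.0367 in edgeR and an adjusted p of 1.0; in control discs it was -0.12. Eip75B, an early nuclear receptor, stood at 298.7, 265.5 and 299.9 CPM and then 202.2, 237.2 and 277.8 CPM. Those libraries overlapped, and the difference was -0.27 with an unadjusted p of 0.108. The receptor gene EcR differed by 0.12, and shd, whose enzyme makes 20-hydroxyecdysone, by -0.32 at 2.05 to 2.81 CPM with an unadjusted p of 0.0295. Without the 78 h replicate 1 library the list median was -0.05.

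Patterning and growth genes did not pass the test either, and most had narrow intervals. Of 62 wing patterning genes 0 were called, 60 intervals lay inside 1.5-fold, 11 had a positive difference and the median was -0.05 (-0.02 in control discs). The morphogen gene dpp stood at 100.9, 100.4 and 102.8 CPM at 48 h and 92.0, 100.8 and 100.5 CPM at 78 h, a difference of -0.05. The posterior selector en stood at 101.3, 101.3 and 109.7 CPM and then 69.2, 105.1 and 105.1 CPM, a difference of -0.16. In both genes replicate 1 was the lowest library at 78 h, and without it the list median was -0.01, with 24 of 62 positive. All 20 Hippo pathway genes had intervals inside 1.5-fold with a median of -0.01, and its effector yki differed by 0.00. Of 31 proneural and sensory organ genes 0 were called, with a median of -0.05 that was 0.01 without the 78 h replicate 1 library. Myc, the growth regulator, differed by 0.00, and 29 of 29 ribosome biogenesis genes lay inside 1.5-fold with a median of 0.03 (0.07 in control discs), which was -0.02 without the 78 h replicate 1 library. Among 26 insulin, TOR and growth genes 0 were called; Thor, the 4E-BP translation inhibitor, ranged from 5.39 to 33.7 CPM at 48 h and from 7.98 to 9.57 CPM at 78 h. Of 18 glycolysis genes 0 were called, 17 intervals lay inside 1.5-fold, 1 had a positive difference and the median was -0.05 (0.02 in control discs); it was -0.04 without the 78 h replicate 1 library. Of 34 cuticle and chitin genes 0 were called. The chitinase gene Cht6 stood at 194.4, 194.9 and 198.7 CPM and then 170.4, 166.7 and 179.1 CPM without overlap, a difference of -0.19 with an unadjusted p of 0.00426, and -0.16 in control discs.

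**Figure D3:**
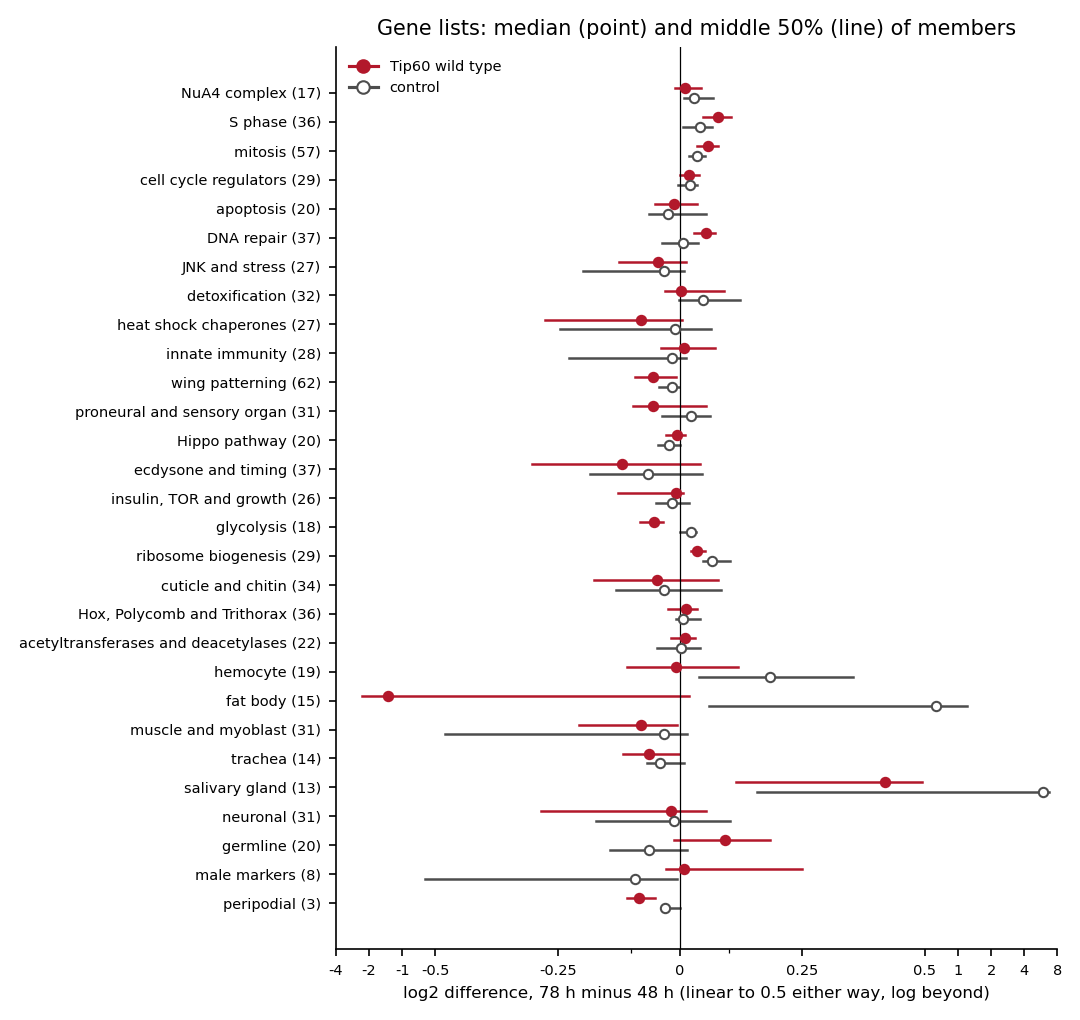
Log2 difference, 78 h minus 48 h, of the tested members of 29 gene lists (number tested in brackets) in wild type Tip60 discs (filled red) and control discs (open grey); points are medians and lines span the middle 50% of members, on an axis that is linear to 0.5 either way and logarithmic beyond. Process list medians lie between -0.12 and 0.08 in wild type discs, while the fat body list lies at -1.35 and, in control discs, the salivary gland list at 5.93.

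Single libraries carried transcripts that are typical of other tissues. Genes at 2 CPM or more and at least 5 times the level of each of the other 5 wild type libraries numbered 25 in the 48 h replicate 2 library and 13 in the 78 h replicate 2 library. They numbered 3, 0, 7 and 1 in 48 h replicates 1 and 3 and 78 h replicates 1 and 3. Among the 6 control libraries, counted the same way, they numbered 9, 5 and 9 at 48 h and 26, 0 and 0 at 78 h. The fat body list, whose 15 tested members include larval storage proteins, summed to 610.1, 3685 and 450.2 CPM at 48 h and 787.2, 508.4 and 698.3 CPM at 78 h. In control discs it summed to 509.2 to 636.4 CPM at 48 h and 710.4 to 948.6 CPM at 78 h. Fbp1, the storage protein receptor, stood at 111.0, 1198 and 5.12 CPM at 48 h and 74.9, 13.8 and 101.3 CPM at 78 h. Its difference was -2.79 (unadjusted p of 0.0349), and 0.11 without the 48 h replicate 2 library. The list median was -1.35, and 0.43 without that library. It was 0.03 in limma-voom and 0.25 with a replicate block across the tables. Storage protein gene Lsp1gamma stood at 834.0 CPM in the 48 h replicate 2 library and at 3.38 to 50.4 CPM in the other 5. The apolipoprotein gene apolpp stood at 299.2 CPM there and at 2.70 to 15.1 CPM in the others. In these bulk libraries, fewer cells of a type and less RNA per cell cannot be told apart.

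Other genes stood out in single 78 h libraries of wild type discs. The serine protease genes Jon65Aiv, Jon65Aiii and Jon66Ci stood at 13.3, 6.24 and 4.85 CPM in the 78 h replicate 2 library, against at most 1.16, 0.568 and 0.300 CPM in the other 5. The control 48 h replicate 3 library held 38.1 CPM of Jon65Aiv and 15.7 CPM of Jon65Aiii. For Jon65Aiv the Tip60dn mean at 48 h was 47.1 CPM with an SD of 72.0 CPM, so the Tip60dn libraries differed widely. Osi3, Osi7 and Osi12, of a gene family clustered on chromosome 3R, stood at 3.59, 4.00 and 2.25 CPM in the 78 h replicate 1 library, against at most 0.171, 0.0641 and 0 CPM in the others. These 3 Osi genes were among the 6 that DESeq2 called. The others were CG18662, CG42716 and CG42798. CG18662 had 0 counts in each 48 h library and 50, 4 and 6 counts at 78 h. CG42716 had 244, 25 and 5 counts at 48 h and 1, 2 and 4 at 78 h, and it was not among the genes tested with edgeR. CG42798 stood at 16.2 and 7.78 CPM in 48 h replicates 1 and 2 and at 0.0427 to 0.0851 CPM in the other 4 libraries. It differed by -7.16 in edgeR in wild type discs and by -6.97 in control discs. The control libraries held 7.56, 0.137 and 0.0235 CPM at 48 h and 0 to 0.0336 CPM at 78 h, so that difference rests on 48 h replicate 1.

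Markers of most other cell types had summed levels that overlapped between durations. Abundant members carried some of these sums. In wild type discs at 48 h hth averaged 777.9 CPM of a peripodial sum of 802.4 CPM, and it is also a disc marker here. CrebA averaged 193.6 CPM of a salivary gland sum of 224.3 CPM. The sums need not follow the amount of another cell type. The hemocyte list summed to 1723 to 2007 CPM at 48 h and 1539 to 1968 CPM at 78 h, with the matrix genes Ppn and Col4a1 differing by -0.14 and -0.01. Muscle and myoblast genes summed to 2172 to 2249 CPM and 2070 to 2175 CPM, with Tm1 and Zasp52 each at -0.03; the list median was -0.08, and 0.09 without the 48 h replicate 2 library. The 14 tracheal genes summed to 3928 to 4120 CPM and 3521 to 4124 CPM, with uif at -0.12 and pio at -0.10. Salivary gland genes summed to 181.3 to 247.8 CPM and 207.2 to 210.9 CPM, with CrebA at -0.16 and sage at 0.06 and a list median of 0.42 that was -0.10 without the 78 h replicate 1 library, whereas the control 78 h replicate 1 library reached 3104 CPM. Neuronal genes summed to 2152 to 2205 CPM and 2188 to 2231 CPM, with Nrg at 0.05 and unc-13 at -0.01. The germline list, which holds tud at -0.03 and ovo at -0.05, summed to 1261 to 1312 CPM and 1155 to 1342 CPM. In the fat body list the most abundant gene beside Fbp1 was GNBP3, at -0.05. The peripodial list, 3 genes with hth and odd at -0.08 and -0.02, summed to 735.6 to 840.1 CPM and 722.7 to 791.2 CPM. The dosage compensation RNA lncRNA:roX1 stood at 527.4, 421.1 and 123.0 CPM at 48 h and 320.7, 371.7 and 307.8 CPM at 78 h, and fru differed by 0.21. The low roX1 value was in 48 h replicate 3, where roX2 stood at 4.36 CPM against 12.4 to 23.4 CPM in the other 5. Control libraries held 461.4, 374.2 and 772.0 CPM of roX1 at 48 h and 209.9, 272.8 and 330.7 CPM at 78 h. The control durations did not overlap for either RNA. The control differences were -0.98 for roX1 and -1.19 for roX2, with unadjusted p of 0.0187 and 0.0163 and adjusted p of 0.916 and 0.909 in edgeR. How these values bear on single genes was not tested.

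**Figure D4:**
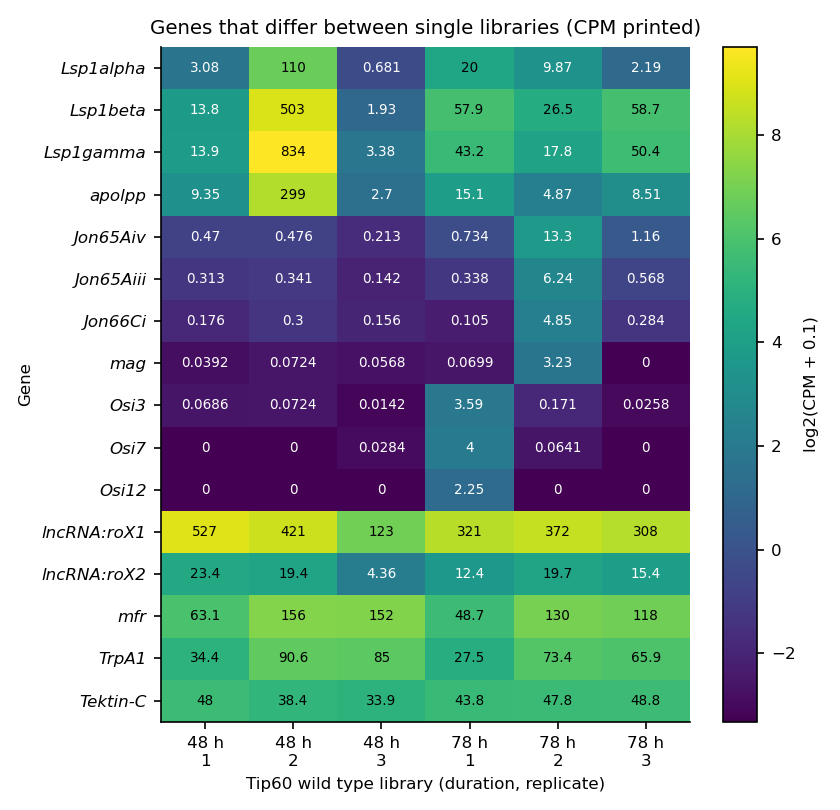
Level of 16 genes in each of the 6 wild type Tip60 libraries; colour is log2(CPM + 0.1) and the printed number is CPM. Storage protein genes peak in 48 h replicate 2, Jon protease genes in 78 h replicate 2 and Osi genes in 78 h replicate 1, while mfr and TrpA1 are lowest in replicate 1 at both durations.

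Genes that averaged 5 CPM or more in the group with the higher level, with an unadjusted p under 0.05 and no overlap between durations numbered 81 of 6853 (1.18%), beside 240 of 6829 (3.51%) in control discs. In wild type discs 41 were higher and 40 lower at 78 h, and none passed the adjusted test. The examples here were chosen after their values were seen. The piRNA pathway gene krimp stood at 6.05, 3.55 and 5.76 CPM at 48 h and 7.24, 11.0 and 9.67 CPM at 78 h, a difference of 0.86 (interval 0.32 to 1.40), beside 0.27 in control discs. The cell adhesion gene nrm stood at 28.5, 31.6 and 34.4 CPM and then 46.4, 38.1 and 43.9 CPM, a difference of 0.44. In control discs nrm differed by 0.43 with an unadjusted p of 7.85e-04, and the difference between the 2 shifts was 0.01. The kinetochore gene Nnf1b likewise differed by 0.35 in wild type and 0.54 in control discs. In Tip60dn discs nrm differed by 0.49 and Nnf1b by 0.46. Their unadjusted p there were 2.73e-04 and 2.08e-04 in edgeR, with adjusted p of 0.105 and 0.0916. The cullin gene Cul6 differed by 0.36 in wild type and 0.01 in control discs, and its difference of shifts of 0.35 had an unadjusted p of 0.0119 and an adjusted p of 0.999 in edgeR. The receptor tyrosine kinase gene Tie and the sterol carrier gene Npc2a differed by 0.31 and 0.29, and by 0.09 and 0.04 in control discs. Mal-B2 and CG5335 differed by 0.62 and 0.57, and by 0.17 and 0.32 in control discs. For krimp, Tie, Npc2a, Mal-B2 and CG5335 the difference of shifts against control had an unadjusted p of 0.07995 to 0.28 in edgeR. In Tip60dn discs krimp differed by 0.57, Npc2a by 0.41, Mal-B2 by 1.30, CG5335 by 0.15 and Tie by -0.05.

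Among the lower genes, ImpL2, which encodes a secreted binding protein of insulin-like peptides, stood at 186.8, 153.2 and 124.4 CPM at 48 h and 124.0, 120.9 and 117.4 CPM at 78 h. The nearest libraries of the durations, at 124.4 and 124.0 CPM, almost met. Its difference was -0.36 (interval -0.71 to -0.01), beside -0.11 in control discs, and 61.9% of its exons overlap another gene on the same strand, so its counts may be split. Pu, which encodes GTP cyclohydrolase, stood at 6.60, 34.7 and 6.44 CPM and then 6.28, 3.51 and 3.76 CPM, a difference of -1.82 that was -0.53 without the 48 h replicate 2 library, beside -0.03 in control discs. The mucin-related gene Mur89F differed by -1.08 in wild type and -1.12 in control discs. CAH2, a carbonic anhydrase gene, differed by -0.42 in wild type and 0.20 in control discs. The T-box gene mid differed by -0.34 and -0.24, asRNA:CR45185, which lies in part opposite Cht6, by -0.35 and -0.28, and lncRNA:CR32385 by -0.40 and -0.06. For the difference of shifts against control, edgeR gave unadjusted p of 0.306 for ImpL2, 0.0171 for Pu, 0.0157 for CAH2 and 0.0929 for lncRNA:CR32385. Each had an adjusted p of 0.999.

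Many genes that separated wild type from control discs did so at both durations. This comparison was added after the data were seen, and the control genotype is not given, so the transgene and the genetic background cannot be told apart. In edgeR 525 genes were called at 48 h (4.7%), 257 higher and 268 lower in wild type discs, and 598 at 78 h (5.35%), 283 higher and 315 lower. DESeq2 called 816 (7.33%) and 969 (8.48%). Of the edgeR calls 343 were made at both durations, each in the same direction, which is 65.3% of the genes called at 48 h and 57.4% of those called at 78 h. The 48 h and 78 h libraries are separate. Both comparisons came from 1 fit of all 18 libraries with a shared estimate of the spread, so the calls are not fully independent. Of the 343, 0 were called between durations in wild type discs (0% of all genes tested were), and 270 had an interval inside 1.5-fold for that difference. Leaving out 1 library moved the 48 h count to between 331 and 567 and the 78 h count to between 302 and 912. It fell to 331 without control 48 h replicate 2. At 78 h it was 912 without wild type replicate 1, 328 without wild type replicate 2, 357 without wild type replicate 3, 302 without control replicate 1 and 363 without control replicate 3.

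Some of these genes, chosen after their values were seen, were near 0 in one arm. On chromosome 3L the neighbours mfr (8905918 to 8912671), a sperm ferlin gene, and TrpA1 (8894404 to 8905200), a cation channel gene, were high in wild type discs. For mfr the wild type libraries stood at 63.1, 155.9 and 151.6 CPM at 48 h and 48.7, 129.7 and 117.6 CPM at 78 h, while all 6 control libraries were at 0.0446 to 0.418 CPM. TrpA1 stood at 34.4, 90.6 and 85.0 CPM and then 27.5, 73.4 and 65.9 CPM, with control libraries at 0.0706 to 0.272 CPM. In both genes replicate 1 was the lowest wild type library at each duration. Tektin-C, of cilia and sperm tails, stood at 33.9 to 48.8 CPM in wild type and 0.279 to 1.01 CPM in control discs, and the cell adhesion gene Dscam4 at 54.8 to 86.4 CPM against 0.474 to 0.830 CPM. In Tip60dn discs mean levels at 48 h were 0.0668 CPM for mfr, 0.0821 CPM for TrpA1 and 0.513 CPM for Tektin-C, but 96.5 CPM for Dscam4. In the other direction Root, a ciliary rootlet gene, stood at 0.363 to 2.17 CPM in wild type and 32.1 to 35.2 CPM in control discs, with 0.574 CPM on average in Tip60dn discs at 48 h. The neighbours ppk13 and CG33509 on chromosome 2L stood at 0.0233 to 0.490 and 0 to 0.216 CPM in wild type discs, and at 15.4 to 27.0 and 8.12 to 12.5 CPM in control discs. Their Tip60dn means at 48 h were 12.4 and 6.17 CPM.

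**Figure D5:**
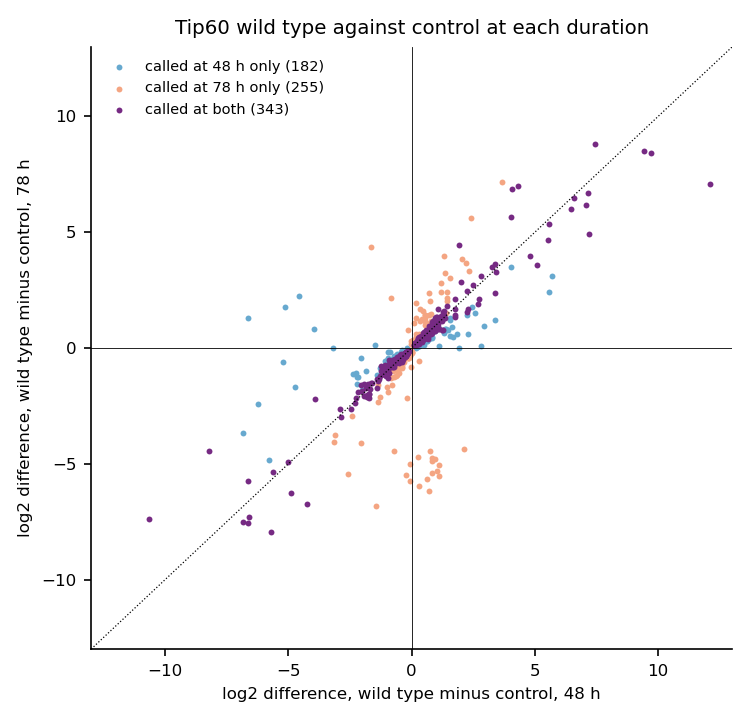
Log2 difference, wild type Tip60 minus control, at 48 h (horizontal) and 78 h (vertical) for genes called in edgeR at 48 h, at 78 h or at both; the dotted line marks equal differences. The 343 genes called at both lie in the quadrants where both differences have the same sign, with a Pearson correlation of 0.962. Dnaaf3 lies far from the line, at 12.09 at 48 h and 7.10 at 78 h, with control libraries at 0 to 0.0835 CPM.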

How the data were processed

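Members, lists and tests were chosen with earlier results of these data known. The deposited tables, 1 for each duration, hold raw counts per gene. The submitters' processing notes name edgeR 3.13.4, limma, featureCounts and FastQC, and BDGP6 as the build; aligner and strand setting: not given in the sources used here. Libraries held 65277725 to 105716567 counts. Identifiers were matched to Ensembl release 115 (17253 of 17559); the other 306 held 5.69% to 6.01% of a library's counts, were tested, and carry no name.

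Tests used R 4.3.3, edgeR 4.0.16, limma 3.58.1 and DESeq2 1.42.0. All 18 libraries were fitted together, with group as the only term, after filterByExpr (minimum of 10 counts) and TMM scaling. The two-sided edgeR quasi-likelihood test was adjusted by Benjamini-Hochberg over all 11173 genes, and a gene was called at an adjusted p under 0.05. CPM uses the TMM factors, and SE is the log2 difference over the square root of F. The common biological coefficient of variation was 0.197. The procedure was tested on simulated data. Intervals cover the spread between libraries. The 29 gene lists (820 of 868 entries matched, some under a newer symbol) were described by counts and medians. Unmatched entries include wg, ap, Dl, vas and nos.

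Named genes followed a rule: Tip60, w, E2f1, CycE, stg, dap, Rbf and rpr; called genes of the wild type shift, also by their call in the control shift and in the difference from it, by size; members of each process list called in the wild type shift; and the 2 most abundant members of each tissue list. Its parts on called genes returned 0 genes. Other genes were chosen after their values were seen. Alternatives were other scaling, filters and tools, the replicate block and leaving out each library.

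Replicate numbers were checked for pairing. Residuals of same-numbered libraries correlated at 0.01, -0.11 and 0.19 between wild type 48 h and 78 h, and at 0.04, 0.04 and 0.02 in controls, so the numbers were not read as pairs across the tables. Between wild type and control they were 0.19, 0.06 and 0.21 at 48 h and 0.06, -0.01 and 0.00 at 78 h, not read as pairs. Between wild type and Tip60dn they were 0.01, 0.00 and 0.25 at 48 h and 0.26, 0.35 and 0.31 at 78 h. Libraries with different numbers were not correlated, so these values cannot settle which numbers are pairs. The numbers of the wild type and Tip60dn groups were treated as pairs at 78 h. The main fit left this pairing out, and the alternative with a replicate block within each table included it. Between libraries of a group mean chi-square per gene was 12.6 to 93.0, so none was a copy of another there.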

Additional observations from a re-analysis of the deposited data

How the results depend on the processing

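In 15 alternative fits the wild type shift gave 0 calls, except 6 in DESeq2; leaving out each wild type library gave 0 to 0. The number at an unadjusted p under 0.05, 455, became 147 with genes of at least 5 CPM, where fewer genes were tested, 235 with the 6 wild type libraries alone, and 443 to 767 on leaving out a library (767 without 48 h replicate 2). The control shift gave 22 calls in DESeq2 and 0 to 10 on leaving out a library (10 without control 78 h replicate 3). The Tip60dn shift, 15 calls, gave 9 with RLE size factors, 106 in DESeq2, 9 with the replicate block across the tables and 0 to 35 on leaving out a library. The difference of shifts against control gave 3 in DESeq2 and 0 to 0 on leaving out a library, and that against Tip60dn 4 and 0 to 8. Wild type against control gave 816 in DESeq2 and 331 to 567 on leaving out a library at 48 h, and 969 and 302 to 912 at 78 h. Genes with an interval inside 1.5-fold numbered 6913 to 7073 on leaving out a library. With the replicate block the wild type shift gave 0 calls, with 385 at an unadjusted p under 0.05. With the replicate block within each table both differences of shifts gave 0 calls, and wild type against control 563 and 600. Some list medians near 0 changed sign between settings. Of 1547 single-gene values, 1546 kept their call; CG42798 was called in DESeq2 (-7.17, adjusted p of 0.0364). The cause of these changes was not tested. The filter of 5 CPM, the robust fit and the alternatives of the comparisons with control were chosen after seeing the data. The median SE was highest for genes under 1 CPM.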
